A study of Mus musculus with 10 samples.

Results

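The genes described here code for ATP-dependent chromatin remodelers of mouse embryonic stem cells (mESCs) and for relatives that share their gene names. They were taken by symbol from the table that pairs array probes with genes: the Smarc, Chd, Baz and Ino80 genes, Arid1 to Arid5, Atrx, Bptf, Pbrm1, Brd7, Brd9, Mbd2, Mbd3, Mta1, Mta2, Mta3 and Hells. A gene was kept where a probe was detected (detection p-value of 0.05 or less) on 5 or more of the 10 arrays. This gave 45 of 9401 gene symbols. All 77 probes of that table with a matching symbol passed the detection minimum, so the table and not this minimum set the list. It left 3494 kept probes unnamed, and a gene without a named probe there could not be taken. The main probe was detected on all 10 arrays for 44 genes, and the probe of Atrx on 9. Smarcd1, Smarcd3, Hells, Baz1a, Baz1b, Chd7, Arid3c, Arid5a and Arid5b were not analysed here. The symbol rule also did not take in p400 or SRCAP, so the list is not the full family. The paper describes Dmap1, the gene altered in these cells, as a core component of the Tip60-p400 and Swr1/SRCAP complexes.

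Remodelers are large protein complexes in which an ATPase of the SNF2 family uses ATP to slide, eject or exchange nucleosomes. SWI/SNF (BAF) complexes mostly open chromatin, NuRD couples remodeling to histone deacetylation, ISWI complexes space nucleosomes, and INO80 acts on nucleosomes that hold the variant H2A.Z. Complexes swap close relatives for one another, and in mESCs the BAF complex is built around Smarca4, Arid1a and Smarcc1, whereas other cells use more Smarca2, Arid1b and Smarcc2.

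The libraries come from G-CCE mESCs of 5 lines, each measured once on Illumina Mouse WG-6 bead arrays on 2 days. WT cells were not transfected. MMTR KD cells carry the lentivirus pLV-TH-MMTR/Dmap1_shRNA against Dmap1, of which MMTR is another name, and were isolated as EGFP-expressing clones. MMTR-F cells carry pcDNA3-Flag with full-length MMTR, MMTR-C cells the C-terminal residues 221 to 468, and MMTR-N cells the N-terminal residues 1 to 220, all 3 under drug selection. At d0 the cells grew with leukemia inhibitory factor (LIF), and at d3 LIF had been absent for 3 days, which starts differentiation. For differentiation the paper's methods name hanging drops, with the aggregates moved to bacterial culture dishes on day 2. In cells grown this way, the loss of LIF and aggregation cannot be told apart. The series text speaks of duplicated profiles, but each line and day has 1 library, and no label gives a second clone. The p-values therefore rest on the spread left after line and day are fitted, which is how unevenly the lines changed between the days. They do not measure the spread among independent cultures.

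Values are log2 quantile-normalized signals, and lists of 5 values begin with WT and MMTR KD and go on with MMTR-F, MMTR-C and last MMTR-N. Raw median signals were 218 to 244 at d0 and 337 to 347 at d3, so an array run and the day cannot be told apart. All 8 mESC markers (Pou5f1, Sox2, Nanog, Zfp42, Dppa5a, Esrrb, Tdgf1 and Utf1) were detected in every library. Their summed raw signal, which was not normalized between the days, was 107055 to 147227 at d0 and 55782 to 98132 at d3. Of 7 fibroblast markers only Thy1 had a kept probe, and of 6 macrophage markers only Csf1r. Thy1 had a raw signal of 443 to 1008 at d0 and 1007 to 1451 at d3. After normalization Thy1 rose by 0.54 (SE 0.15, adjusted p = 0.0174), and its part in the results was not tested. In these bulk libraries, fewer cells that express a gene and less RNA per cell cannot be told apart. The Dmap1 probe measured 10.59, 10.78, 10.48, 12.005 and 10.52 at d0 and 10.42, 10.38, 10.18, 12.003 and 10.34 at d3. It stood higher in MMTR-C alone. The libraries labelled MMTR KD minus WT gave 0.19 (d0) and -0.04 (d3), and over both days 0.08 (SE 0.10, adjusted p = 0.744), so the lines are named by their labels throughout.

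The catalytic subunits of SWI/SNF and ISWI each come as a pair of genes, and in both pairs the genes moved differently between the days. The sequence before each of these 4 genes is shown for that reason. It comes from RefSeq (GRCm38.p6, strand of the gene) and covers the last 250 bases before the listed start, cut where the gene itself begins. Capitals mark GC boxes (GGGCGG) and CCAAT boxes (CCAAT) on either strand.
Smarca2 (chr19:26604910-26605072, plus strand): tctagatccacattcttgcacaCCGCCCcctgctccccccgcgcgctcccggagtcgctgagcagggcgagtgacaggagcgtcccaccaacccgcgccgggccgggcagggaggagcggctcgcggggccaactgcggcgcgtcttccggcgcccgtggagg
Smarca4 (chr9:21615919-21616105, plus strand): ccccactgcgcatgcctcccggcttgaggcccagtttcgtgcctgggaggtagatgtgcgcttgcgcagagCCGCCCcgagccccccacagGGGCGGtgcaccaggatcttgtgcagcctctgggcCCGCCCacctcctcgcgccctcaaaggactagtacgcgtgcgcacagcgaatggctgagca
Smarca1 (chrX:47892614-47892863, minus strand): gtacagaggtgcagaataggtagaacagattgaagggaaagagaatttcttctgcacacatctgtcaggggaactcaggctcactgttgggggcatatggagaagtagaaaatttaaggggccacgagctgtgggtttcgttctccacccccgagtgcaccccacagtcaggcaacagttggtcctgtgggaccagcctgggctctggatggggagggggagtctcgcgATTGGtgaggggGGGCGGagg
Smarca5 (chr8:80739460-80739709, minus strand): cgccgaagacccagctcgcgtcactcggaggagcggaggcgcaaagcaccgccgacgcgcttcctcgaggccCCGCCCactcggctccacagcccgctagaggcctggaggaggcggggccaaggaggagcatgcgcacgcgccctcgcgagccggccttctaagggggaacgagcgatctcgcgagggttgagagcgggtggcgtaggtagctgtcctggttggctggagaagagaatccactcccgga

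The windows of Smarca2 (21 CpG in 163 bases) and Smarca5 (29 CpG in 250) were rich in CpG, Smarca4 had 15 in 187, and the X-linked Smarca1 had 6 in 250. RefSeq's promoter table held 41 windows of 250 bases for 33 of the genes, of which some had more than 1 window. Their median CpG count was 21, against 16 for genes with a kept probe and 6 for all 32851 windows of the table. A GC box was present in 30 of the 41 (73.2%), against 59.1% of the 9815 windows of genes with a kept probe and 32.7% of all windows. A CCAAT box was present in 12 (29.3%, against 35.9% and 33.8%), an E-box (CACGTG) in 3 (7.32%, against 8.64% and 6.02%) and a TATA box (TATAAA) in 3 (7.32%, against 6.16% and 12.4%). Matches of different motifs overlapped in 0 cases. The E-boxes lay before Ino80e, Bptf and Pbrm1. The letters are a description of these windows and not of factor binding.

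Which remodeler genes differed between d0 and d3 was asked with the lines as repeats of the day. Of the 45 genes, 15 rose, 12 fell and 18 did not pass the limma test (Benjamini-Hochberg over 17775 probes, threshold 0.05). Over all probes 24.0% rose and 24.7% fell, and with 1 probe per symbol 26.0% rose and 25.3% fell. The shares of the remodeler genes, 33.3% and 26.7%, lay somewhat above and near these. With median scaling 13 of the 45 rose, a share below the 32.6% of all probes. The median day difference was 0.10 over the 45 genes and 0.0006 over all probes. Unadjusted p-values under 0.05 were found for 32 genes. All d3 libraries lay above or below all d0 libraries for 16 genes (35.6%), 9 higher and 7 lower, against 26.4% of all probes. The day difference had the same sign in 5 of 5 lines for 28 genes. For these 28 and for the 32 the share over all probes was not counted, so neither number sets the remodeler genes apart. The sizes depend on the background correction, which the deposited log2 values lack: with RMA background correction 13 of the 27 genes that passed had a day difference over 1.5 times larger.

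**Figure D1:**
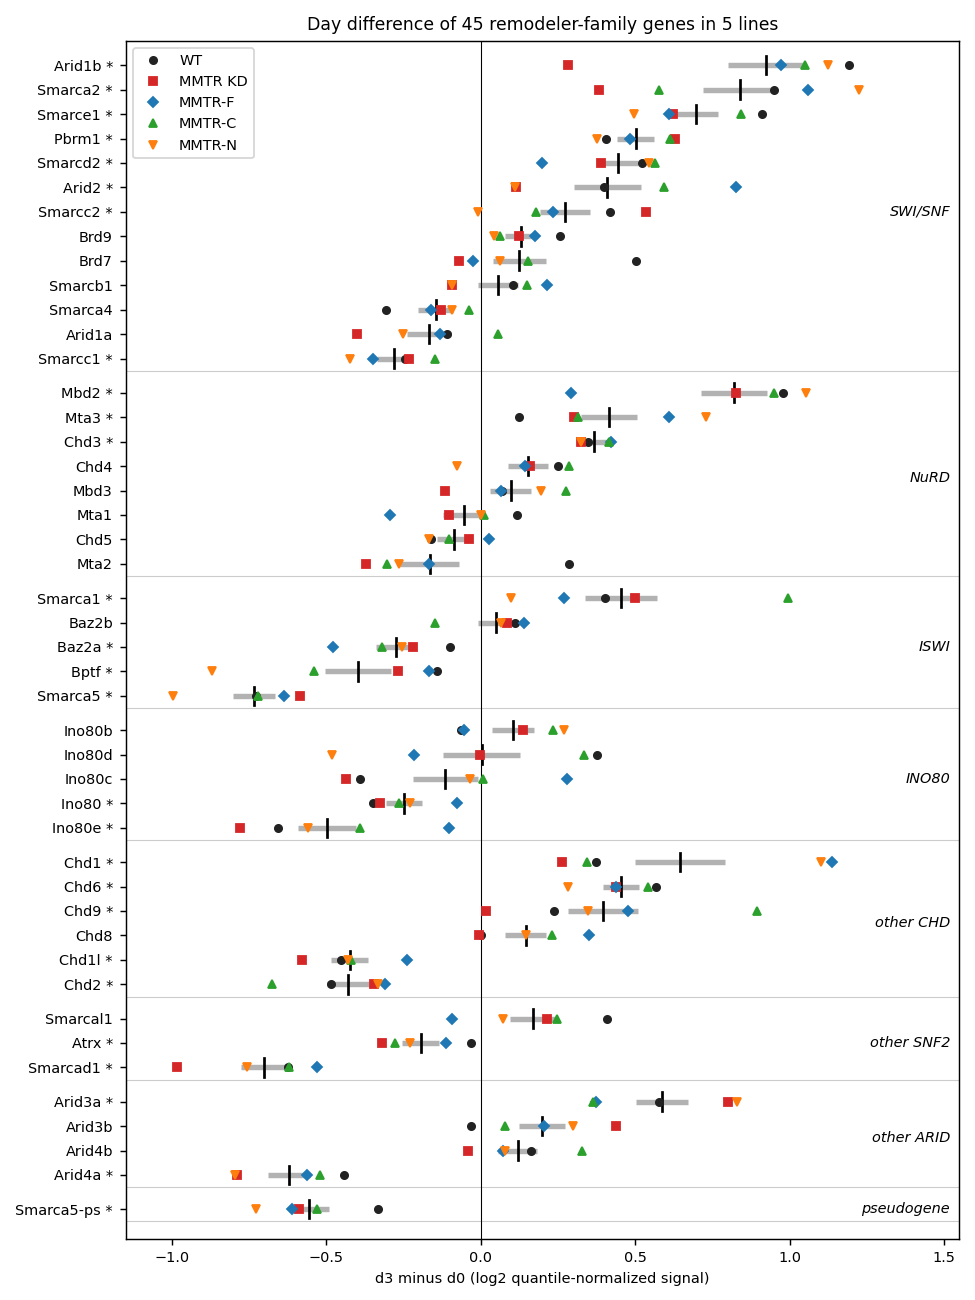
Difference between d3 and d0 (log2 signal, x axis) of each of the 45 genes (y axis), grouped by complex; symbols are the 5 lines, black ticks the fitted mean, grey bars 1 SE of the fit, and an asterisk an adjusted p-value under 0.05. Arid1b (0.92) and Smarca2 (0.84) lie at the top of SWI/SNF, and Smarca5 (-0.73) lies at the bottom of ISWI with all lines below 0.

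Of 13 measured SWI/SNF genes 7 rose (Arid1b, Smarca2, Smarce1, Pbrm1, Smarcd2, Arid2 and Smarcc2), 1 fell (Smarcc1) and 5 did not pass, with a median difference of 0.27, while 24.0% of all probes rose. Pbrm1 reversed with the mean of all its probes. Arid1b, 1 of 2 alternative large DNA-binding subunits of BAF (chr17:4994297-5347656), measured 10.29, 11.01, 10.44, 10.37 and 9.89 at d0 and 11.48, 11.29, 11.41, 11.42 and 11.02 at d3. The days did not overlap, although the MMTR KD library already stood highest at d0. Arid1b rose by 0.92 (SE 0.12, adjusted p = 6.84e-04), or 1.90-fold, and a dimmer second probe rose by 0.19 (adjusted p = 0.012). Its partner in alternation, Arid1a (chr4:133679008-133756769), had a difference of -0.17 (SE 0.07, adjusted p = 0.0846).

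The ATPase Smarca2 (Brm, chr19:26605073-26778321) measured 8.66, 8.94, 8.72, 8.68 and 8.64 at d0 and 9.61, 9.33, 9.78, 9.26 and 9.87 at d3. Every d3 library was above every d0 library, with the largest rises in MMTR-N and MMTR-F (1.23 and 1.06) and the smallest in MMTR KD (0.38). The fitted rise was 0.84 (SE 0.12, adjusted p = 8.63e-04), or 1.79-fold. Its counterpart Smarca4 (Brg1, chr9:21616106-21704230) was 9.47 to 9.85 at d0 and 9.37 to 9.54 at d3, lower at d3 in all 5 lines, and its difference of -0.15 (SE 0.06, adjusted p = 0.0618) did not pass.

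Smarce1, the HMG-box subunit BAF57, measured 11.31, 11.41, 11.13, 11.38 and 11.26 at d0 and 12.22, 12.04, 11.74, 12.22 and 11.75 at d3. The days did not overlap. The gene rose by 0.70 (SE 0.07, adjusted p = 2.12e-04), and its second probe rose by 0.64 (adjusted p = 3.15e-04). Smarcd2, a BAF60 subunit, measured 11.06 to 11.16 at d0 and 11.36 to 11.71 at d3 and rose by 0.44 (SE 0.07, adjusted p = 0.0011). The scaffold subunits diverged, since Smarcc2 rose by 0.27 (SE 0.08, adjusted p = 0.0246) and Smarcc1 changed by -0.28 (SE 0.06, adjusted p = 0.0049), with a second Smarcc1 probe at -0.17 (adjusted p = 0.0328). Smarcc1 did not pass without a line term (adjusted p = 0.0974) or with the methods' t-test after adjustment (0.0747). The Smarcc2 rise did not pass without WT (adjusted p = 0.0762), MMTR KD (0.0765) or MMTR-F (0.0526).

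Among the subunits of the PBAF form, Arid2 measured 10.74 to 11.01 at d0 and 11.07 to 11.57 at d3 and rose by 0.41 (SE 0.11, adjusted p = 0.0149), which did not pass without MMTR-C (adjusted p = 0.0534). Pbrm1, which binds acetylated histones through its bromodomains, rose by 0.50 (SE 0.06, adjusted p = 3.80e-04) on its brightest probe, but its 4 further probes gave -0.71, -0.24, -0.09 and 0.01. The first 2 of these passed in the opposite direction (adjusted p = 8.58e-04 and 0.0237), so the direction of Pbrm1 depends on the probe. Brd7, the third PBAF gene, had 0.12, Brd9 of the non-canonical BAF complex 0.13 and the core subunit Smarcb1 0.06, and none of these 3 passed.

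Of 15 further SWI/SNF subunits listed as partners, 8 had a kept probe, of which 2 rose, 3 fell and 3 did not pass. Of all probes 24.0% rose and 24.7% fell. Bicral, a subunit of the non-canonical complex, measured 12.47 to 12.82 at d0 and 10.93 to 11.37 at d3 and changed by -1.46 (SE 0.08, adjusted p = 2.23e-05). Actl6a (BAF53a, the actin-like subunit of stem and progenitor cells) changed by -0.62, whereas Bcl7a rose by 0.55 and Phf10 by 0.43.

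**Figure D2:**
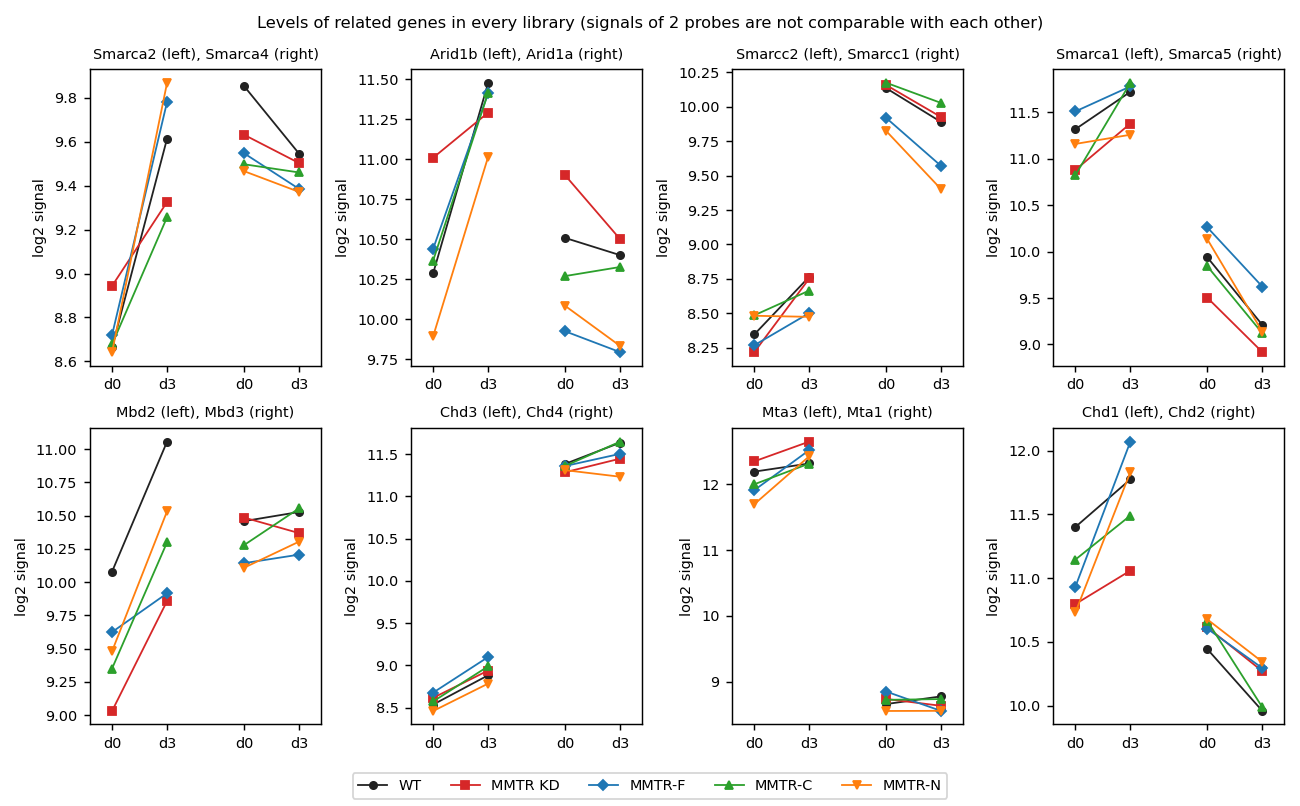
Log2 signal (y axis) at d0 and d3 (x axis) of 8 pairs of related genes in the 5 lines, each line drawn through its 2 libraries; within a panel the slopes can be compared but not the heights of different genes. Smarca2, Arid1b, Smarcc2, Smarca1 and Chd1 slope up while Smarca4, Smarcc1, Smarca5 and Chd2 slope down, with the exception of Smarcc2 in MMTR-N (-0.01).

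In NuRD, 3 of 8 genes rose (Mbd2, Mta3 and Chd3), 0 fell and 5 did not pass, with a median of 0.13. Of all probes 24.0% rose and 24.7% fell. Mbd2, which binds methylated CpG, measured 10.08, 9.03, 9.62, 9.35 and 9.48 at d0 and 11.06, 9.86, 9.92, 10.30 and 10.53 at d3. WT was highest on both days, and the days overlapped across lines, but each line was higher at d3. Mbd2 rose by 0.82 (SE 0.11, adjusted p = 5.91e-04), or 1.76-fold, and least in MMTR-F (0.29). Mbd3, the relative that anchors NuRD in mESCs, had 0.10 (SE 0.07, adjusted p = 0.252).

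Of the NuRD ATPases, Chd3 rose by 0.37 (SE 0.05, adjusted p = 6.46e-04) with d0 libraries of 8.46 to 8.68 and d3 libraries of 8.78 to 9.10. Chd4, the main NuRD ATPase of mESCs, had 0.15 (SE 0.06, adjusted p = 0.0818), with further probes at -0.13 and -0.15, and Chd5, best known from the nervous system, had -0.09. Mta3, a scaffold subunit that holds the deacetylases, measured 11.70 to 12.35 at d0 and 12.32 to 12.65 at d3 and rose by 0.42 (SE 0.09, adjusted p = 0.0064). Its dimmer second probe gave 0.06 (adjusted p = 0.518). Mta1 had -0.05 and Mta2 -0.16. Among 4 of 7 partners with a kept probe, the histone-binding Rbbp7 rose by 0.54 and Gatad2b changed by -0.34 (SE 0.07, adjusted p = 0.0059). The Rbbp7 rise (SE 0.15, adjusted p = 0.0168) was uneven, with 0.09 in WT, 0.16 in MMTR-C and 0.57 to 1.17 in the other lines.

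Of 5 ISWI genes, Smarca1 rose, Smarca5, Bptf and Baz2a fell and Baz2b did not pass, with a median of -0.28, while 24.7% of all probes fell. With the mean of all its probes Bptf did not pass (-0.06, adjusted p = 0.414), which leaves Smarca5 and Baz2a. Smarca5 (Snf2h, chr8:80699943-80739459), the ISWI ATPase of proliferating cells, measured 9.94, 9.50, 10.26, 9.84 and 10.13 at d0 and 9.21, 8.92, 9.62, 9.12 and 9.14 at d3. Its difference was -0.996 to -0.59 in the single lines, and the days overlapped because MMTR-F at d3 stood above MMTR KD at d0. The fitted difference was -0.73 (SE 0.07, adjusted p = 1.30e-04), so Smarca5 was 1.66-fold lower at d3, and with RMA background correction it was -1.29. The symbol rule also took in Smarca5-ps, a pseudogene on chromosome 4 whose probe may read Smarca5 itself, and which measured 12.99, 12.73, 13.01, 13.14 and 13.14 at d0 and 12.66, 12.14, 12.40, 12.61 and 12.42 at d3, a difference of -0.56 (SE 0.07, adjusted p = 3.58e-04). The other ISWI ATPase, Smarca1 (Snf2l, chrX:47809370-47892613), measured 10.82 to 11.51 at d0 and 11.26 to 11.82 at d3 and rose by 0.45 (SE 0.12, adjusted p = 0.0132), most in MMTR-C (1.00) and least in MMTR-N (0.10).

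Bptf, the largest subunit of the ISWI complex NURF and a reader of trimethylated histone H3 lysine 4, changed by -0.40 (SE 0.11, adjusted p = 0.0165). Its difference was -0.14 in WT and -0.87 in MMTR-N, its 2 dimmer probes gave 0.14 and 0.06, and the main probe did not pass without MMTR-C (adjusted p = 0.0566). Baz2a (Tip5), which with Smarca5 forms the complex that silences ribosomal DNA, measured 9.45 to 9.71 at d0 and 9.23 to 9.35 at d3 without overlap and changed by -0.28 (SE 0.06, adjusted p = 0.0085). All 4 ISWI partners had a kept probe, of which Rsf1, a Smarca5 partner, rose by 0.24 and 3 did not pass.

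In INO80, 0 of 5 genes rose, 2 fell and 3 did not pass, with a median of -0.12, while 24.0% of all probes rose and 24.7% fell. Ino80e measured 9.76 to 10.47 at d0 and 9.57 to 9.81 at d3 and changed by -0.50 (SE 0.09, adjusted p = 0.0035), with the smallest difference in MMTR-F (-0.10), where the d0 level was already low. The ATPase Ino80 was lower in all 5 lines without overlap, -0.25 (SE 0.06, adjusted p = 0.0084). Of 7 partners with a kept probe among 9, Actr5 rose by 0.23 and Tfpt by 0.19, and the AAA+ ATPase Ruvbl1, shared with other complexes, changed by -0.31 (SE 0.06, adjusted p = 0.0032).

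Of the 6 CHD genes outside NuRD, Chd1, Chd6 and Chd9 rose, Chd2 and Chd1l fell and Chd8 did not pass. Of all probes 24.0% rose and 24.7% fell. Chd1, which binds trimethylated histone H3 lysine 4 and is known for keeping mESC chromatin open, measured 11.40, 10.80, 10.93, 11.15 and 10.73 at d0 and 11.78, 11.06, 12.07, 11.49 and 11.83 at d3. The days overlapped across lines, since MMTR KD at d3 stayed below WT at d0. The rise of 0.64 (SE 0.15, adjusted p = 0.0074) was uneven, with 1.10 in MMTR-N, 1.14 in MMTR-F and 0.26 to 0.37 in the other lines. All 4 Chd1 probes rose (0.35 to 0.78). Its closest relative Chd2 measured 10.44 to 10.68 at d0 and 9.96 to 10.34 at d3 and changed by -0.43 (SE 0.07, adjusted p = 0.0014), and its 2 further probes passed the same way (-0.53 and -0.41).

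Chd6 measured 8.95 to 9.09 at d0 and 9.37 to 9.58 at d3 without overlap and rose by 0.45 (SE 0.06, adjusted p = 5.52e-04). Chd9 rose by 0.40 (SE 0.11, adjusted p = 0.0205), with single differences between 0.02 (MMTR KD) and 0.90 (MMTR-C), its 2 further probes did not pass, and the main probe did not pass without MMTR-F (adjusted p = 0.0587). Chd1l (ALC1), a remodeler switched on by poly(ADP-ribose) at DNA breaks, measured 9.46 to 9.62 at d0 and 8.99 to 9.26 at d3 and changed by -0.42 (SE 0.06, adjusted p = 8.47e-04).

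Smarcad1, a SNF2-family remodeler known for keeping heterochromatin through replication, measured 12.52, 12.60, 12.86, 12.51 and 12.78 at d0 and 11.89, 11.62, 12.33, 11.89 and 12.02 at d3. Every d3 library was below every d0 library, with differences of -0.98 to -0.53 in the single lines. It changed by -0.70 (SE 0.07, adjusted p = 2.12e-04), a 1.63-fold lower level at d3. A dimmer second probe gave -0.16 and did not pass (adjusted p = 0.132), and the mean of both was -0.43. On its main probe Smarcad1 was, with Smarca5, 1 of 2 genes past a difference of 0.5 in all 5 lines. The share of all probes past that size in all 5 lines was not counted, so this number does not set the remodeler genes apart. Atrx, which deposits histone H3.3 with Daxx, changed by -0.19 (SE 0.06, adjusted p = 0.0278) and was not detected in MMTR KD at d3. Without MMTR KD its adjusted p was 0.087, without MMTR-C 0.0882 and without MMTR-N 0.07. Smarcal1, which restores stalled replication forks, had 0.17 and did not pass. Of 3 partners of this group with a kept probe (Daxx, Cdca7 and Zbtb24), Zbtb24 changed by -0.45 (SE 0.08, adjusted p = 0.0025) and the other two did not pass.

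The Arid3 and Arid4 genes share the ARID domain but are not remodeler subunits. Arid3a, a DNA-binding factor, measured 8.82, 8.73, 8.91, 8.85 and 8.97 at d0 and 9.39, 9.53, 9.28, 9.21 and 9.80 at d3. It rose without overlap by 0.59 (SE 0.08, adjusted p = 8.91e-04). Arid4a, a subunit of the Sin3-HDAC corepressor, measured 9.81, 9.89, 9.58, 9.72 and 9.74 at d0 and 9.37, 9.10, 9.02, 9.20 and 8.95 at d3, again without overlap, and changed by -0.62 (SE 0.07, adjusted p = 2.90e-04). Of its 4 dimmer probes 1 passed the same way (-0.31) and 3 did not pass. Arid3b and Arid4b did not pass. Without these 4 genes and the pseudogene, 14 of 40 genes rose and 10 fell, against 24.0% and 24.7% of all probes.

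Of 17 ATPases taken by the symbol rule 6 rose, 6 fell and 5 did not pass, while 24.0% of all probes rose and 24.7% fell. Day differences of related genes were subtracted line by line, for 9 pairs chosen after their values were seen and so given without a test. Each value is the day difference of the first gene minus that of the second, and says nothing of which gene stood at the higher level. It was 1.19 ± 0.31 (SD, n = 5 lines) for Smarca1 over Smarca5, 1.09 ± 0.27 for Arid1b over Arid1a, 1.07 ± 0.37 for Chd1 over Chd2 and 0.99 ± 0.39 for Smarca2 over Smarca4. It was smaller for Mbd2 over Mbd3 (0.72 ± 0.30), Smarcc2 over Smarcc1 (0.55 ± 0.18), Mta3 over Mta1 (0.47 ± 0.35) and Chd3 over Chd4 (0.21 ± 0.13). These 8 pairs had the same sign in 5 of 5 lines, and Mta3 over Mta2 (0.58 ± 0.44) in 4 of 5. Arid1b, Mbd2, Smarca2, Smarcd2 and Smarce1 stood in a list of rising targets that was drawn up from these same libraries, so the rise of all 5 is not independent evidence for that list.

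Within single lines, a difference of 0.5 or more between d3 and d0 was counted with no test, since each is a pair of libraries. In WT, 8 genes (17.8%) were higher at d3 against 9.31% of all probes and 3 (6.67%) were lower against 8.75%. In MMTR KD, 6 (13.3%) were higher against 8.56% and 6 lower against 8.01%. In MMTR-F, 6 were higher against 6.85% and 4 (8.89%) lower against 6.50%. In MMTR-C, 10 (22.2%) were higher against 9.42% and 6 lower against 8.76%, and in MMTR-N, 7 (15.6%) were higher against 8.93% and 6 lower against 8.46%. In each line the share of remodeler genes that were higher was above that of all probes. The share that were lower was below that of all probes in WT and above it in each of the other lines.

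The 5 lines differed in how far some genes went. Chd1, Smarca2 and Mta3 had their largest rises in MMTR-F and MMTR-N, where Mta3 rose by 0.61 and 0.73 against 0.12 to 0.32 elsewhere. The mESC markers also differed in these lines, with median differences between d3 and d0 of -0.69 in MMTR-N, -0.67 in MMTR-F and -0.74 in MMTR KD, against -1.33 in WT and -1.19 in MMTR-C. Whether these move together was not tested, and the differences between lines in the day effect were not tested for single genes.

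Each line was also set against WT across both days, in the same fit. In MMTR KD, 1 of the 45 genes (2.22%), Mbd2, was lower, against 1.73% of all probes, and 0 were higher against 1.58%. Unadjusted p-values under 0.05 were found for 8 genes. For MMTR-N 0 genes passed in either direction, against 0.0731% of all probes, and 8 had unadjusted p-values under 0.05. For MMTR-F 0 passed, against 0.0450%, with 16 unadjusted, and for MMTR-C 0 passed, against 0.0169%, with 2 unadjusted. The percentages are shares of adjusted calls. The share of all probes with unadjusted p-values under 0.05 was not counted, so the unadjusted numbers do not set the remodeler genes apart. All these differences share the 2 WT libraries.

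Mbd2 stood at 9.03 in MMTR KD at d0 and 9.86 at d3, against 10.08 and 11.06 in WT, a difference of -1.12 (SE 0.17, adjusted p = 0.0228). The other lines lay between WT and MMTR KD on both days, and did not pass. MMTR-N differed from WT by -0.56 (SE 0.17, adjusted p = 0.204), MMTR-C by -0.74 (SE 0.17, adjusted p = 0.33) and MMTR-F by -0.80 (SE 0.17, adjusted p = 0.0935). WT had the highest Mbd2 level of each day, and all these differences are taken from its 2 libraries. With RMA background correction the difference in MMTR KD was -1.71 and no longer passed (adjusted p = 0.0679).

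Chd1 stood lower in the MMTR KD library than in WT on each day, with 10.80 against 11.40 at d0 and 11.06 against 11.78 at d3. The main probe did not pass, -0.66 (SE 0.23, adjusted p = 0.165), but the 3 further probes gave -0.84, -0.59 and -0.51, of which the second passed (adjusted p = 0.0237). At d0 the MMTR-N library was also low (10.73), and at d3 MMTR KD was the lowest of the 5.

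Smarca5, Brd7 and Chd9 lie on chromosome 8, and their main probes gave negative differences in MMTR KD that did not pass. On that chromosome 149 of 814 probes (18.3%) were lower in MMTR KD with a median difference of -0.30, against 0.847% of the named probes on other chromosomes. Chd9 measured 10.50 at d0 and 10.52 at d3 in MMTR KD, the lowest library of each day, against 11.16 and 11.40 in WT. Its difference was -0.77 (SE 0.18, adjusted p = 0.0596), with -0.79 and -0.27 on further probes. Smarca5 had -0.36 (SE 0.11, adjusted p = 0.113) and Brd7 -0.34 (SE 0.14, adjusted p = 0.213), with a second Brd7 probe at -0.69 that passed (adjusted p = 0.025). Smarca5-ps on chromosome 4, whose probe may read Smarca5, had -0.38 (SE 0.10, adjusted p = 0.0886). The part of chromosome 8 as a whole in the levels of these genes was not tested, and Mbd2 and Chd1 lie on other chromosomes.

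**Figure D3:**
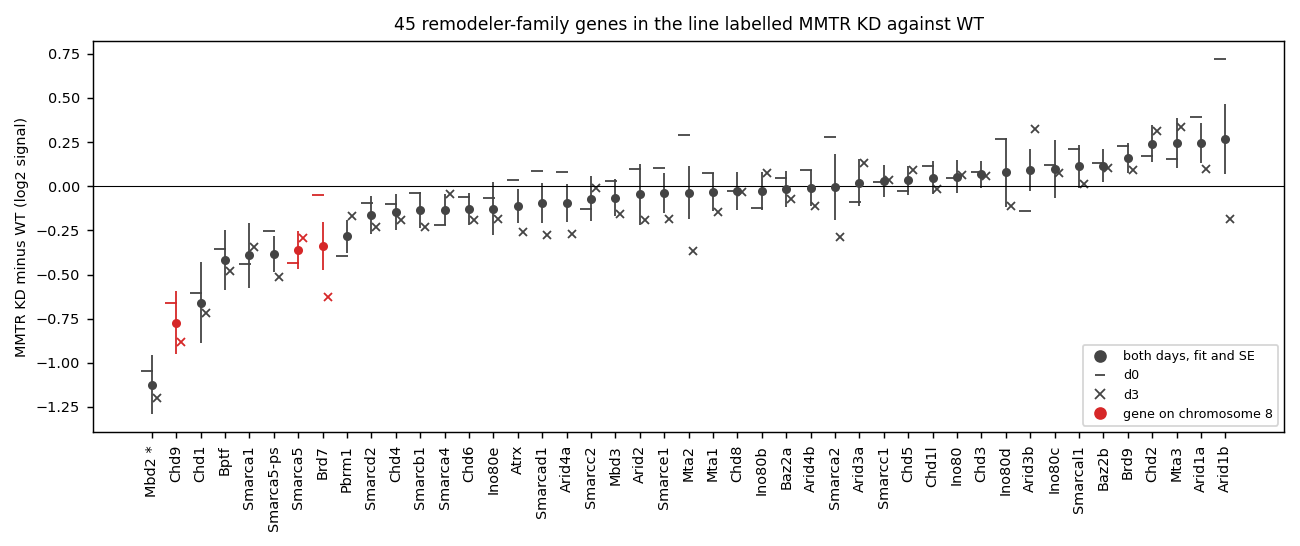
MMTR KD minus WT (log2 signal, y axis) for each of the 45 genes (x axis); dots are the fit over both days with 1 SE, dashes the d0 difference, crosses the d3 difference, red the 3 genes on chromosome 8, and an asterisk an adjusted p-value under 0.05. Mbd2 (-1.12) is the lowest, followed by Chd9 (-0.77) and Chd1 (-0.66), and d0 and d3 lie on opposite sides of 0 for Arid1b.

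Arid1a ran low in MMTR-F (9.92 at d0 and 9.79 at d3) and MMTR-N (10.08 and 9.83), against 10.51 and 10.40 in WT. Neither the difference of MMTR-F, -0.60 (SE 0.11, adjusted p = 0.0736), nor that of MMTR-N, -0.50 (SE 0.11, adjusted p = 0.146), passed. Chd5 stood at 8.998 and 8.83 in MMTR-N, against 8.30 to 8.48 in the other 8 libraries. Its difference of 0.53 (SE 0.08, adjusted p = 0.105) did not pass either, and a second Chd5 probe gave 0.13 (adjusted p = 0.507).

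Counted per library at 0.5 or more from WT in either direction, 4 genes (8.89%) differed in MMTR KD at d0 against 9.64% of all probes, and 5 (11.1%) at d3 against 6.22%. In MMTR-F 2 (4.44%) differed at d0 against 5.19% and 2 at d3 against 7.13%. In MMTR-C 1 (2.22%) differed at d0 against 4.80% and 1 at d3 against 0.990%. In MMTR-N 3 (6.67%) differed at d0 against 3.23% and 6 (13.3%) at d3 against 8.35%. Chd9, Chd1 and Mbd2 in MMTR KD, Arid1a in MMTR-F, Mbd2 in MMTR-C and Chd5 and Mbd2 in MMTR-N passed that size in the same direction on both days. Arid1b was higher in MMTR KD at d0 (0.72) and not at d3 (-0.19).

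**Figure D4:**
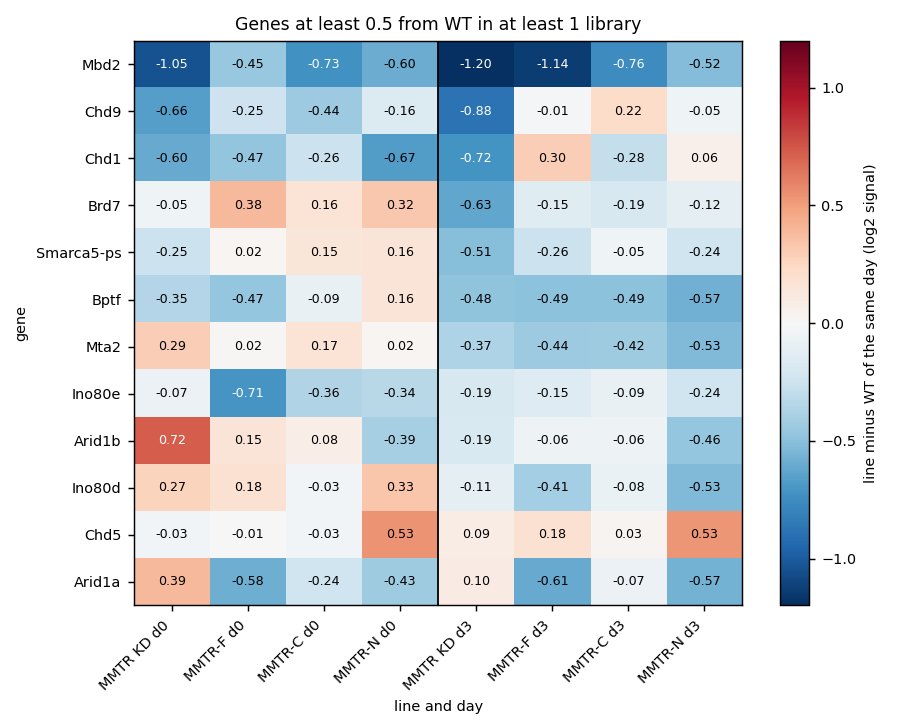
Difference from the WT library of the same day (log2 signal, colour and number in each cell) of the 12 genes (y axis) that reached 0.5 in at least 1 of the 8 libraries (x axis). Mbd2 is below WT in all 8 (-0.45 to -1.20), Chd9 is lowest in MMTR KD, and Chd5 lies above WT in MMTR-N on both days (0.53 and 0.53).

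At d3 the median of the 45 genes differed from WT by -0.16 in MMTR KD, -0.13 in MMTR-N, -0.11 in MMTR-F and -0.01 in MMTR-C, while the median of all probes was -0.02 in MMTR-N and -0.01 elsewhere. At d0 the medians of the 45 genes were 0.03 in MMTR KD, -0.07 in MMTR-N, -0.07 in MMTR-F and -0.01 in MMTR-C. The mESC markers at d3 stood above WT by medians of 0.89 in MMTR-F, 0.82 in MMTR-N, 0.38 in MMTR KD and 0.06 in MMTR-C, and their part in the levels of the remodeler genes was not tested. Across the 5 lines, the range of a gene's level was 0.34 at d0 and 0.41 at d3 in the median remodeler gene, against 0.33 and 0.31 over all probes. A range of 0.5 or more was found for 12 genes (26.7%) at d0 and 16 (35.6%) at d3, against 24.7% and 21.6% of all probes.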

How the data were processed

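Expression was measured in 10 libraries of G-CCE mESCs, 1 per line and day, on Illumina Mouse WG-6 v.2 arrays. The authors deposited the bead signal (intensity) of 45281 probes with a detection p-value for each, not background-subtracted, made with BeadStudio 3.2 per the labels or GenomeStudio per the paper's methods. The authors also deposited log2 values, which were within 0.044 of a quantile normalization of the log2 signals without the background correction that the series text names. 0 sample columns were left unused.

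A probe entered the fit if its detection p-value was at most 0.05 on 5 arrays or more. This left 17775 probes, of which 14281 carried 1 of 9401 gene symbols and 3494 were unnamed, and their log2 signals were quantile normalized. The probe of highest mean signal stood for a gene. limma 3.58.1 in R 4.3.3 fitted line and day as terms over all kept probes with 4 residual and 4.06 prior degrees of freedom, and two-sided p-values were adjusted by Benjamini-Hochberg. The fit was tested on simulated data. Differences between 2 libraries carry no test, and the number of arrays limits the precision.

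The genes, lists and partner subunits were chosen with earlier results of these data known. Named with values were all genes past the threshold, with every library for the 10 of largest day difference, genes at least 0.5 from WT on both days or in 2 lines, their relatives and up to 4 partners a list. Genes are placed on GRCm38.p6 through RefSeq. Tables and figures used Python 3.11.15, numpy 2.4.6, pandas 2.3.3 and matplotlib 3.10.9. Alternatives covered the background correction, normalization, filter, probe choice, variance model, thresholds and leaving out each line. RMA background correction was recomputed from its normal-exponential model.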

Additional observations from a re-analysis of the deposited data

Results flagged for a closer look

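Among the 45 genes, the differences between d3 and d0 of the 5 lines were searched for a line that stood far from the other 4 by Dixon's criterion, which chance meets in about 5% of groups, and 2 were found. Arid1b rose by 0.28 in MMTR KD and by 0.97 to 1.19 in the other lines, since its d0 level in MMTR KD was 11.01. Baz2b, a relative of Baz2a, had a difference of -0.15 in MMTR-C and of 0.07 to 0.14 in the other lines.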

How the results depend on the processing

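The numbers of genes that rose (13 to 16) and fell (10 to 14) between the days stayed within 1.5 times the reported 15 and 12 under every alternative run. The background moved as well. Of all probes or symbols tested, 11.7% (no filter on detection) to 32.6% (median scaling) rose and 12.6% to 27.9% fell. Repeats of the named day differences kept direction and side of the threshold in 408 cases, lost the threshold in 22 and reversed in 1: Pbrm1 was -0.11 (adjusted p = 0.196) with the mean of all its probes, whose directions differ. That setting lowered the median day difference over the 45 genes from 0.10 to 0.0026. RMA background correction made the day differences of 13 genes over 1.5 times larger, such as Smarca5 (-1.29), Arid4a (-1.16), Chd1l (-0.85), Ino80 (-0.92) and Smarca2 (1.95). Median scaling made 8 and the mean of all probes made 6 over 1.5 times smaller (or reversed). Median scaling gave 13 rising and 14 falling of the 45 genes, while 32.6% of all probes rose and 27.1% fell. The rising share was then below that of all probes. The median day difference was 0.01 over the 45 genes and 0.04 over all probes. With this scaling Ino80, Atrx, Chd9, Arid2, Mta3 and Smarca1 no longer passed. Chd9 lost the threshold under 5 alternatives, Atrx under 5, Smarcc2 under 3, and Smarcc1, Bptf and Arid2 under 2 each. Without MMTR-C, Bptf, Atrx and Arid2 did not pass, without MMTR-F Smarcc2 and Chd9, without MMTR KD Atrx and Smarcc2, without MMTR-N Atrx, and without WT Smarcc2.

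The number of genes lower than WT in MMTR KD (1, Mbd2) was 0 with RMA background correction, where Mbd2 was -1.71 (adjusted p = 0.0679), 3 with median scaling (Smarca5-ps and Chd9 also), 2 with the mean of all probes (Chd1 also), 2 with a variance trend (Chd9 also) and 1 to 2 when a line was left out, Chd9 passing without MMTR-C. Of all probes 1.73% were lower in MMTR KD in the main fit, 0.186% with RMA background correction and 3.66% with median scaling. The share was 2.10% of symbols with the mean of all probes. It was 1.65% of probes with a variance trend and 1.06% to 1.69% when a line was left out. The adjusted p-value of Mbd2 was 0.00965 to 0.0679 over these alternatives. In MMTR-F, MMTR-C and MMTR-N the count stayed at 0 in each alternative run. Leaving out WT gives no value for a difference from WT. Genes at least 0.5 from WT numbered 7 at d0 and 10 at d3, and 1 and 1 at a size of 1, 21 and 28 with RMA background correction, and 13 and 13 with median scaling. The 23 genes at least 0.5 apart between the days in some line became 4 at a size of 1 and 37 with RMA background correction. For these counts over any line, from WT or between the days, the share of all probes was not counted. They show the effect of the setting and do not set the remodeler genes apart. The day test was paired by line. No block by replicate number was run, since the labels give none.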
